A study of Mus musculus with 2 samples.

Results

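Purine and adenosine receptors were followed through the nuclear RNA of mouse macrophages. The set was given as a list of names and holds 10 of the 55536 annotated genes and 49 annotated transcripts. It comprises 2 ligand-gated channels (P2rx4 and P2rx7), 5 nucleotide receptors coupled to G proteins (P2ry2, P2ry6, P2ry12, P2ry13 and P2ry14) and 3 adenosine receptors (Adora2a, Adora2b and Adora3). All 10 genes were found in the tables, and all 10 reached 10 counts over the pair of libraries.

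The cells were macrophages grown from the bone marrow of C57BL/6J mice. They received Lipid A, the part of bacterial lipopolysaccharide that the receptor TLR4 senses, for 12 h at 100 ng/ml, then had 12 h of washout, and were given it a second time for 50 min at the same dose. Total RNA of their nuclei, called both nuclear and nucleoplasmic in the labels, was depleted of ribosomal RNA and sequenced in 2 libraries, biological replicates 1 and 2. Both libraries carried the whole treatment and share 1 donor entry, the RNA input was 500 ng for replicate 1 but 1 µg for replicate 2, and sex and age were not recorded. There is no untreated group, so nothing below measures a response to Lipid A, and replicate and RNA input cannot be told apart.

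Cells release ATP, ADP, UTP and UDP-sugars when they are stressed or damaged, and enzymes on the cell surface break these nucleotides down to adenosine. P2rx channels open to cations when ATP binds, P2ry receptors signal through Gq or Gi proteins, and adenosine receptors raise or lower cAMP. In macrophages this system is known for triggering inflammasome assembly through P2rx7, for phagocytosis and migration towards dying cells, and for restraint of inflammation by adenosine through Adora2a and Adora2b.

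Depth was 20612078 and 22772081 counts in the gene-level tables of replicates 1 and 2, where a count of 0 allowed a level of up to 0.146 and 0.132 CPM, counts scaled to library size. Levels are given in TPM, in which counts are divided by transcript length and scaled to the same total in every table. Each of 9 macrophage markers was above the protein-coding median, with Lyz2 at 1032 and 989 TPM and Csf1r at 246 and 193 TPM. Many markers of other cell types that hold these receptors were low: the microglial gene Sall1 and all 4 natural killer cell genes had 0 counts, and mast cell, neutrophil, dendritic cell, B cell and fibroblast genes reached at most 0.88 TPM in the mean of both libraries. Higher levels were seen for Pf4 (18.0 and 17.8 TPM), Cd4 (16.1 and 14.4 TPM) and Kdr (5.10 and 13.2 TPM). In bulk RNA, fewer cells with a transcript and less of it in each cell cannot be told apart.

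The channels held most of the receptor RNA. P2rx4, an ATP-gated channel of the plasma membrane and lysosomes, stood at 137 TPM in replicate 1 and 189 TPM in replicate 2 (mean 163 ± 36.8, SD, n = 2). The next receptor by mean level was P2ry6, and P2rx4 lay 7.17-fold above it. Of the summed TPM of the 10 genes, 230 and 292 TPM in replicates 1 and 2, P2rx4 alone made up 59.8% and 64.9%. P2rx7, the channel that at high ATP opens a path for potassium loss and inflammasome assembly, stood at 19.6 and 17.3 TPM (mean 18.4 ± 1.68, SD, n = 2). The 2 channel genes are neighbours on chromosome 5 of the mm10 assembly, both on the plus strand: P2rx7 at chr5:122643911-122691432 and P2rx4 at chr5:122707544-122729738, 16111 bases apart.

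Among the receptors that couple to Gq, P2ry6, which responds to UDP, stood at 24.1 and 21.4 TPM, and P2ry2, which responds to ATP and UTP, stood at 14.3 and 11.7 TPM. Both were lower in replicate 2. They also are neighbours, on the minus strand of chromosome 7 (chr7:100937630-100974649 for P2ry6 and chr7:100996568-101012866 for P2ry2), 21918 bases apart. The Gi-coupled receptors spread further. P2ry14, a receptor for UDP-glucose, stood at 14.1 and 19.8 TPM, and P2ry13, a receptor for ADP, stood at 6.88 and 10.2 TPM. P2ry12, the ADP receptor best known from platelets and microglia, stood at 1.39 and 1.5 TPM on 89 and 92 counts. P2ry12 was low beside the platelet gene Pf4 at 18.0 and 17.8 TPM, while the other platelet markers reached at most 0.67 TPM in the mean of both libraries and the microglial gene Sall1 had 0 counts. The part of other cells in its level was not tested.

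Of the adenosine receptors, which raise cAMP through Gs in the case of Adora2a and Adora2b and lower it through Gi in the case of Adora3, only Adora2a lay in the range of the nucleotide receptors. Adora2a stood at 11.0 TPM in replicate 1 and 19.2 TPM in replicate 2. Adora2b, the receptor with low affinity for adenosine, had 0.89 and 1.13 TPM on 48 and 64 counts. Adora3 had 0.06 and 0.31 TPM on 3.97 and 14 counts and was the lowest of the set in both gene-level tables. In the index-based tables it had 1.24 and 0.389 TPM, above Adora2b with 0.521 and 0.296 TPM. So Adora2a was the higher of the cAMP-raising pair in each library, without overlap.

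Against the 12125 protein-coding genes that reached 10 counts over both libraries, whose median was 3.59 TPM and whose 90 percentile was 28.7 TPM, 7 of the 10 receptors lay above the median and 1, P2rx4, above the 90 percentile. P2rx4 stood at percentile 98.5 of these genes, P2ry6 at 86.9, P2rx7 at 84.2, P2ry14 at 82.9, Adora2a at 81.0, P2ry2 at 78.1 and P2ry13 at 69.5. Below the median were P2ry12 at 31.6, Adora2b at 25.7 and Adora3 at 7.42. In the order of mean levels, the values of P2rx7, P2ry14, Adora2a and P2ry2 overlapped from each to the next. P2rx7 did not overlap with P2ry2, at 17.3 TPM or more against 14.3 TPM or less. P2rx4, P2ry6, P2ry13, P2ry12 and Adora2b did not overlap with the next gene below them, and Adora3 came last.

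**Figure D1:**
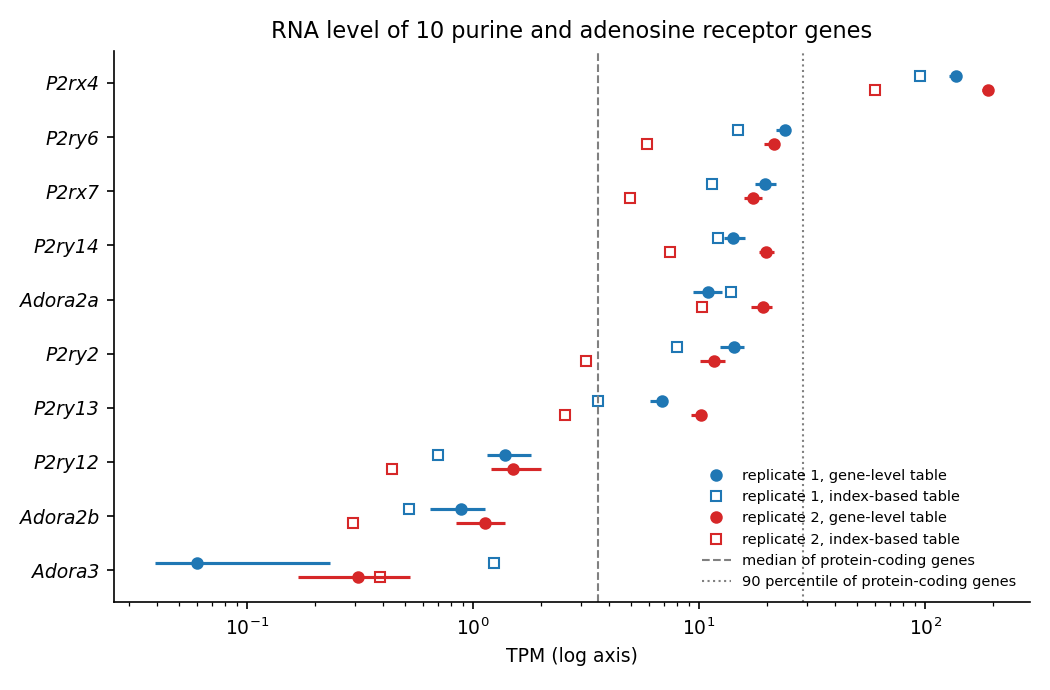
TPM of each receptor gene on a log axis, in replicate 1 (blue) and replicate 2 (red). Filled circles are the gene-level table with the interval the authors deposited, open squares the index-based table, and vertical lines the median (3.59) and 90 percentile (28.7) of protein-coding genes. P2rx4 lies above all others, and 3 receptors lie left of the median.

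The plot of TPM by gene also shows a second set of tables, in which the authors quantified transcripts from an index of transcript sequences, here called index-based. The interval drawn is the deposited one, whose level the sources used here do not give. P2rx4 was again highest, at 94.5 and 60.2 TPM, and P2ry12 and Adora2b again were below P2ry13. Index-based TPM was lower in replicate 2 for all 10 receptors. This included 5 (P2rx4, P2ry14, Adora2a, P2ry13 and Adora2b) that had more index-based counts in replicate 2: P2rx4 had 11230 and 13360 index-based counts, and Adora2a 1254 and 1574. Protein-coding genes held 14.5% and 7.04% of all index-based TPM in replicates 1 and 2, against 21% and 21.9% in the gene-level tables. Index-based TPM is therefore printed for both libraries, but no difference in receptor level between them is read from it. Levels of the 2 libraries are compared in TPM only within the gene-level tables, and differences between libraries were tested on counts.

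**Figure D2:**
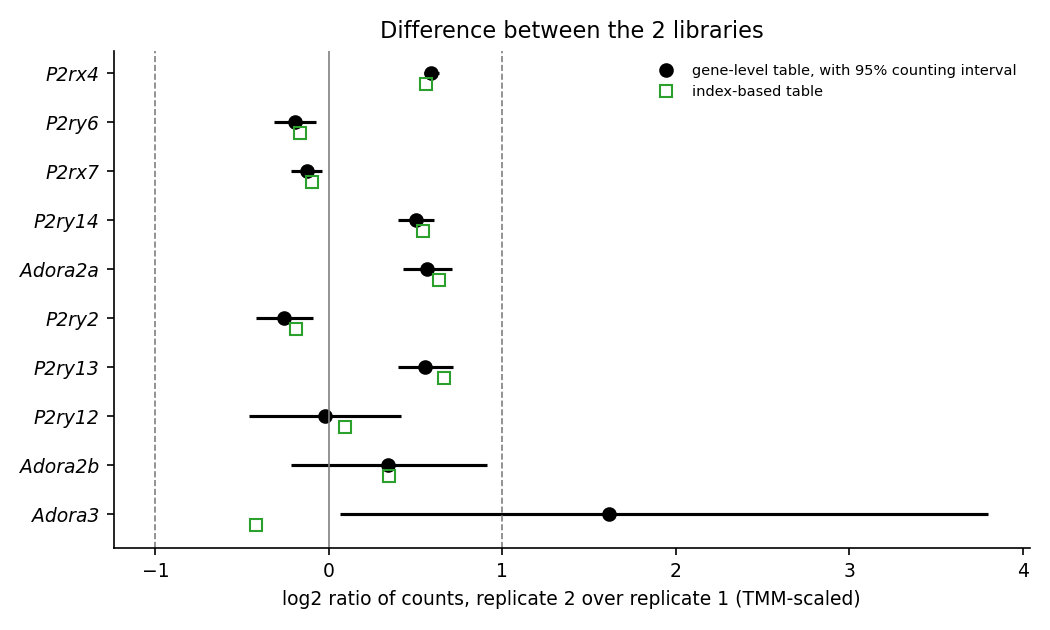
Log2 ratio of counts in replicate 2 over replicate 1 after TMM scaling, by receptor gene in order of level. Circles with bars are the gene-level table with the 95% counting interval, open squares the index-based table, and dashed lines mark a 2-fold difference. P2rx4, P2ry14, Adora2a and P2ry13 lie near 0.5, and Adora3 has the widest interval.

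Between the libraries, counts were compared gene by gene with a two-sided exact binomial test at library shares scaled by TMM, with Benjamini-Hochberg adjustment over all 22502 genes with a count. This compares the 2 libraries and not conditions, has no replicate check, and takes counting as the only error. Its p-values measure departure from counting error alone and no spread between cultures, and such a departure may be technical. Of the 10 receptors, 0 passed an adjusted p under 0.05 together with a 2-fold difference, against 4.84% of all genes tested. At an unadjusted p under 0.05 there were 8 receptors, against 33.3% of all genes. On adjusted p alone, with no minimum fold, 7 of 10 passed, against 26.7% of all genes and 53.1% of the 8640 genes that reached 100 counts in each library, a count that the same 7 receptors reached. With edgeR's exact test at a dispersion of 0.01, which allows for spread between cultures, 0 receptors passed, against 3.05% of all genes. At that dispersion 5 receptors had an unadjusted p under 0.05, against 15% of all genes, and 0 had an adjusted p under 0.05 at any fold, against 4.95%.

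On adjusted p alone, 4 receptors were higher in replicate 2, where 13.4% of all genes were, and 3 were lower, where 13.3% were. All 7 reached 100 counts in each library, and 53.1% of such genes passed in either direction. P2rx4 had 7071 and 11179 counts, a log2 ratio of 0.59 (95% counting interval 0.55 to 0.63, adjusted p = 1.89e-160 in the exact test). Adora2a had 683 and 1065 counts, a log2 ratio of 0.57 (0.43 to 0.71, adjusted p = 8.77e-15 in the exact test). P2ry13 had 527 and 815 counts and a log2 ratio of 0.56, and P2ry14 had 1287 and 1918 counts and a log2 ratio of 0.50. These 4 log2 ratios lay above those of 90.8% to 93.5% of the genes that reached 100 counts in each library. They include a channel, 2 Gi-coupled receptors and an adenosine receptor. The 3 lower ones were the Gq-coupled P2ry2, with a log2 ratio of -0.26 (adjusted p = 0.00912 in the exact test), P2ry6, with -0.20 (adjusted p = 0.00719, exact), and the channel P2rx7, with -0.13 (adjusted p = 0.0201, exact). Their log2 ratios lay above those of 24.2% to 38.8% of the same genes. The 2 channels thus differed in opposite directions, as counts, between these libraries.

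The 3 receptors with fewer counts did not pass. P2ry12 differed by a log2 ratio of -0.025 (95% counting interval -0.46 to 0.41), so a difference up to that size was not detectable at this depth. Adora2b had a log2 ratio of 0.34 (-0.22 to 0.91). Adora3 had a log2 ratio of 1.62 with an interval of 0.064 to 3.80 and an adjusted p of 0.103 in the exact binomial test, and the index-based counts, 209 and 126, gave -0.42, the opposite direction.

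Adora3 also overlaps another gene on its own strand. It shares 779 of its 3729 exon bases, 20.9%, with Tmigd3, and 29.1% of the 31-base words of its main coding transcript, Adora3-201, occur in other genes, mostly Tmigd3. Index-based counts of Adora3 were 52.5 times the gene-level ones in replicate 1 and 9.03 times in replicate 2, against 1.13 to 1.84 times for the other 9 receptors. How shared reads were split between Adora3 and Tmigd3, which itself had 5.03 and 4 counts, was not tested, and no level for Adora3 is drawn from these tables beyond its being low.

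The transcripts of P2rx4 differed in 2 coding exons, shown here because they set which channel protein each transcript encodes. Both exons keep the reading frame. The first has 81 bases, or 27 codons, at chr5:122724594-122724674 on the plus strand, and is held by P2rx4-201 and P2rx4-206 and skipped by P2rx4-202 and P2rx4-204. The second has 66 bases, or 22 codons, at chr5:122727399-122727464, and is held by P2rx4-201 and P2rx4-202 and skipped by P2rx4-204 and P2rx4-206. They are printed 5′ to 3′ from the GENCODE M21 transcript P2rx4-201, with the exon in capitals and 9 bases of each flanking exon in lower case:
P2rx4 81-base exon: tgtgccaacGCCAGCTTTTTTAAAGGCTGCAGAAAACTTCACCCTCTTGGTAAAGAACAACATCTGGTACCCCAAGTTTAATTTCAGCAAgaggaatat
P2rx4 66-base exon: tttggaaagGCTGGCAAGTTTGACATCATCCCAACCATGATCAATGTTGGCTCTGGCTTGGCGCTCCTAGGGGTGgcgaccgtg

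Of the TPM in the 4 coding transcripts of P2rx4, 65.6% in replicate 1 and 65.3% in replicate 2 was assigned to those that skip the 81-base exon (65.4% ± 0.20, SD, n = 2), and 65.2% and 63.7% in the index-based tables. The leading transcript was P2rx4-202, of 361 codons, with 41.0% and 46.9% of the TPM of the gene, against 11.5% and 13.5% for P2rx4-201, of 388 codons, and 10% and 11.5% for P2rx4-206, of 366 codons. In the index-based tables these shares were 38.2% and 42.2%, 5.81% and 4.82%, and 14.6% and 19.2%. Skipping of the 66-base exon took 16.0% in both replicates, and 24.9% and 29.0% in the index-based tables, so that share depended on the quantification more than that of the 81-base exon. The 4 transcripts also differ outside these exons: P2rx4-201 has 1538 bases and P2rx4-202 804 bases beyond its coding part, and P2rx4-204 and P2rx4-206 have 13 each. The shares rest on all of these differences, and reads across the exon junctions were not analysed here.

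Adora2a, Adora2b, P2ry12 and P2ry13 have no transcript annotated as a retained intron. Such transcripts of the other receptors are shown here because the RNA came from nuclei, where unspliced and partly spliced RNA is present beside finished mRNA. They took a large part of the counts for P2ry14 and P2rx4, but 2.71% and 4.98% for P2ry6. The largest was P2ry14-204, a transcript of 1 exon and 7795 bases at the 5′ end of P2ry14. Of its bases, 7595 lie in an intron that 1 coding transcript, P2ry14-203, splices out, and 99.1% lie outside the exons of coding transcripts. It held 789 of the gene's counts in replicate 1 and 1188 in replicate 2, which is 61.3% and 61.9% of the counts of P2ry14, but 22.3% and 23.1% of its TPM, since it is long. The index-based tables gave 58.6% and 60.0% of counts. P2rx4-208, of 3895 bases, runs into the first intron of P2rx4, which all 4 complete coding transcripts splice out, with 94.4% of its bases outside coding transcripts, and held 25.2% and 24.4% of the counts of P2rx4 and 10.7% and 11.4% of its TPM. Both replicates thus gave nearly the same shares. The exon-intron borders that these transcripts read through are printed 5′ to 3′ in the sense of the gene, with the GT at the start of the intron in capitals, at chr3:59153404-59153433 (minus strand) and chr5:122707773-122707802 (plus strand):
P2ry14 intron of P2ry14-203, read through by P2ry14-204: aggagccataagcagGTaaggagattcttc
P2rx4 first intron, read through by P2rx4-208: ggcttacgtcattggGTgagcgggcctggg

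P2rx4-203, of 513 bases, keeps a whole intron of 315 bases just after the 81-base exon, at chr5:122724675-122724989. It held 11.6% and 6.91% of the TPM of P2rx4, with 10.5% and 6.80% in the index-based tables, but only 2.2% and 1.3% of the counts. Of the 31-base words of P2rx4-203, 16.6% also occur in other genes, and the part of reads from those genes was not tested. Only transcripts that do not code for protein were searched for introns of coding transcripts, and this intron is the only one held in full. The borders of the intron are shown, with its first and last bases in capitals:
P2rx4 315-base intron, start: gtttaatttcagcaaGTaagtgggggccgg
P2rx4 315-base intron, end: cctcccctacttcAGgaggaatatcctccc
Reads from the annotated retained-intron transcripts and from precursors not yet spliced cannot be told apart in these tables.

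**Figure D3:**
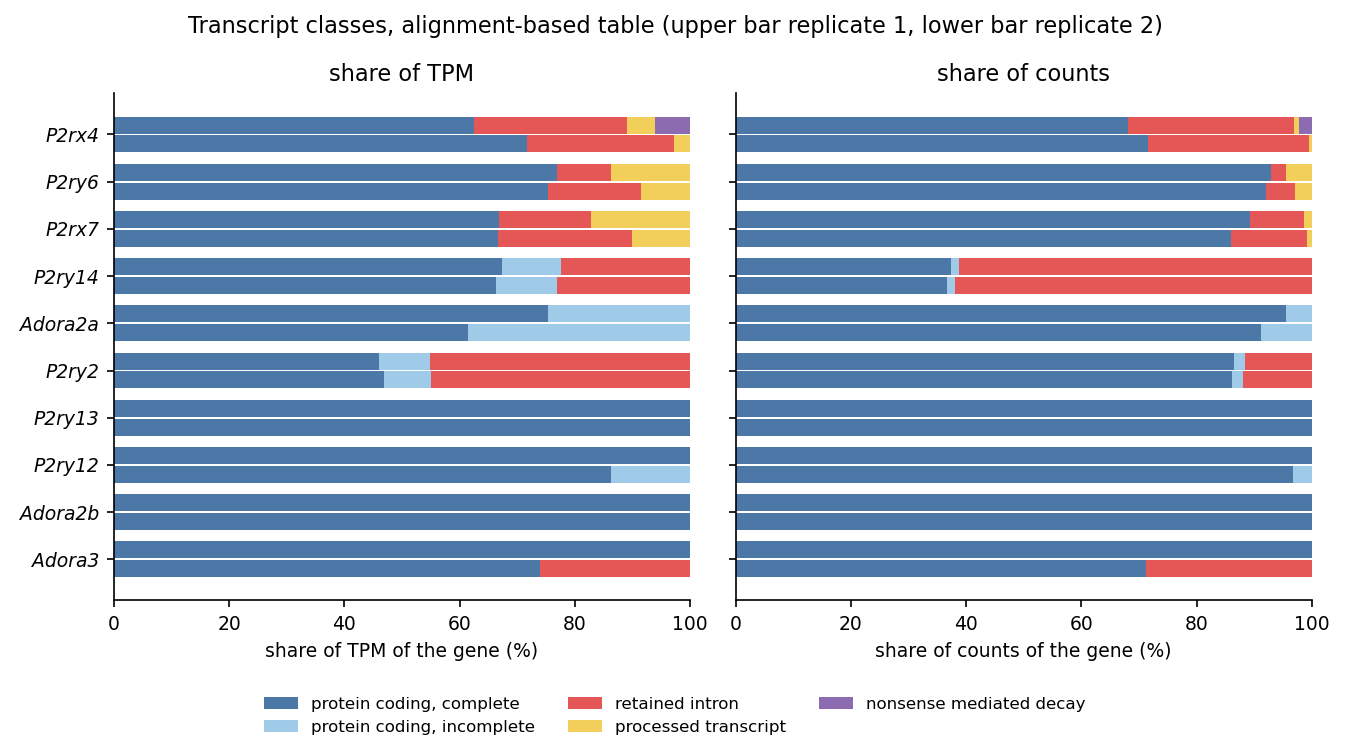
Share of each receptor's TPM (left) and counts (right) by annotated class of transcript, in percent, from the alignment-based tables, with replicate 1 as the upper and replicate 2 as the lower bar of each pair. For P2ry14, retained introns (red) take 61.3% and 61.9% of counts and 22.3% and 23.0% of TPM.

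The bars of transcript classes show the same split for the other receptors. P2ry2-205, a retained-intron transcript of 565 bases at the 5′ end of P2ry2, is the reverse case, with 45.2% and 44.9% of TPM (41.1% and 39.3% index-based) but 11.5% and 11.9% of counts. The coding transcripts of P2ry2 all encode 373 codons where they are complete, and P2ry2-201 led with 26.7% and 29.4% of TPM (22.7% and 21.6% index-based), before P2ry2-206 with 11.1% and 9.13% (16.8% and 16.6%). P2ry6 has 1 coding transcript, P2ry6-201, with 76.9% and 75.4% of TPM (66.4% and 66.8% index-based). The rest of P2ry6 was P2ry6-202, a retained intron with 9.37% and 16.2% (17.5% and 21%), and P2ry6-203, a processed transcript with 13.7% and 8.46% (16.1% and 12.3%).

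P2rx7 was carried by P2rx7-203, of 595 codons, with 57.8% and 60.0% of TPM (60.3% and 57.0% index-based) and 86.0% and 84.4% of counts. P2rx7-205 is annotated as a retained intron, but all of its 2103 bases lie within exons of coding P2rx7 transcripts, and its share of TPM was 16.0% and 23.2%, but 3.27e-04% and 0.342% in the index-based tables. The 2 quantifications therefore gave no common answer for P2rx7-205. P2rx7-207, a processed transcript of 480 bases, had 9.95% and 6.98% (22% and 22.4% index-based). P2rx7-201, with a complete coding part of 442 codons, was at 0 in the alignment-based tables and had 0.737% and 2.39% of TPM in the index-based ones.

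For P2ry14, the coding transcripts P2ry14-202 (29.9% and 22.1% of TPM, 13.8% and 10.8% index-based) and P2ry14-203 (29.3% and 35.9%, 20.1% and 21.1% index-based) both encode 338 codons and differ only outside the coding part. P2ry14-207, whose coding part is incomplete, had 9.51% and 10.1% (13.5% and 13.6% index-based). P2ry14-209, of 339 bases and also incomplete, was at 0 in the alignment-based tables but had 27.9% and 26.7% of TPM in the index-based ones, more than P2ry14-202 or P2ry14-203 had there. P2ry13 and Adora2b have 1 annotated transcript each, so no share could be given. P2ry12 had 5 coding transcripts, 4 of them with the same 347 codons. On its 89 and 92 counts the shares of P2ry12-202 were 81.5% and 33.6% in the alignment-based tables and 40.4% and 3.64% in the index-based ones. P2ry12-201 had 0% and 14.3% (20.6% and 38.2%), P2ry12-203 18.5% and 21.3% (39.0% and 15.8%), P2ry12-204 0% and 17.2% (0% and 11.2%) and P2ry12-205 0% and 13.6% (0% and 31.2%), so at this depth the transcripts of P2ry12 were not resolved.

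Adora2a-201, of 410 codons, is the only complete coding transcript of Adora2a. It held 75.4% and 61.5% of TPM and 95.6% and 91.1% of counts, but 33.8% and 30.8% of TPM in the index-based tables. A pair of short transcripts with incomplete coding parts took most of the rest: Adora2a-203 had 18.9% and 18.5% (14.3% and 12.1% index-based) and Adora2a-204 had 5.77% and 18.5% (37.0% and 36.9%). In the index-based tables Adora2a-201 held 77% and 74.9% of counts. On counts, Adora2a was thus mostly its full coding transcript in both quantifications, while its share of TPM differed between them. Adora3-201 held all of the 3.97 counts in replicate 1 and 16.7% of TPM in replicate 2, beside 57.2% for Adora3-202 and 26.1% for the retained-intron transcript Adora3-203. In the index-based tables Adora3-201 had 70.1% and 88.6%, Adora3-202 0% and 0%, and Adora3-203 29.9% and 11.4%.

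The Gi-coupled nucleotide receptors sit together on chromosome 3. P2ry14 (chr3:59113855-59153618), P2ry13 (chr3:59207892-59210882) and P2ry12 (chr3:59216272-59262871) all lie on the minus strand within Med12l, a subunit gene of the Mediator complex that spans chr3:59005825-59318682 on the plus strand. P2ry13 and P2ry12 are 5389 bases apart, and P2ry14 and P2ry13 are 54273 bases apart. Med12l stood at 0.61 and 0.85 TPM. P2ry14 and P2ry13 share 0 exon bases with Med12l and P2ry12 shares 9 of 2546. Gpr171, another receptor gene on the minus strand within Med12l, stood at 0.18 and 0.19 TPM. P2ry14 and P2ry13 thus lay above P2ry12, and P2ry12 above Med12l and Gpr171, in both replicates. The sources used here do not say if counting used strand. Reads from introns of Med12l therefore cannot be told apart from those of P2ry14, with P2ry14-204, P2ry13 or P2ry12. Med12l had 209 and 295 counts, beside 89 and 92 for P2ry12.

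**Figure D4:**
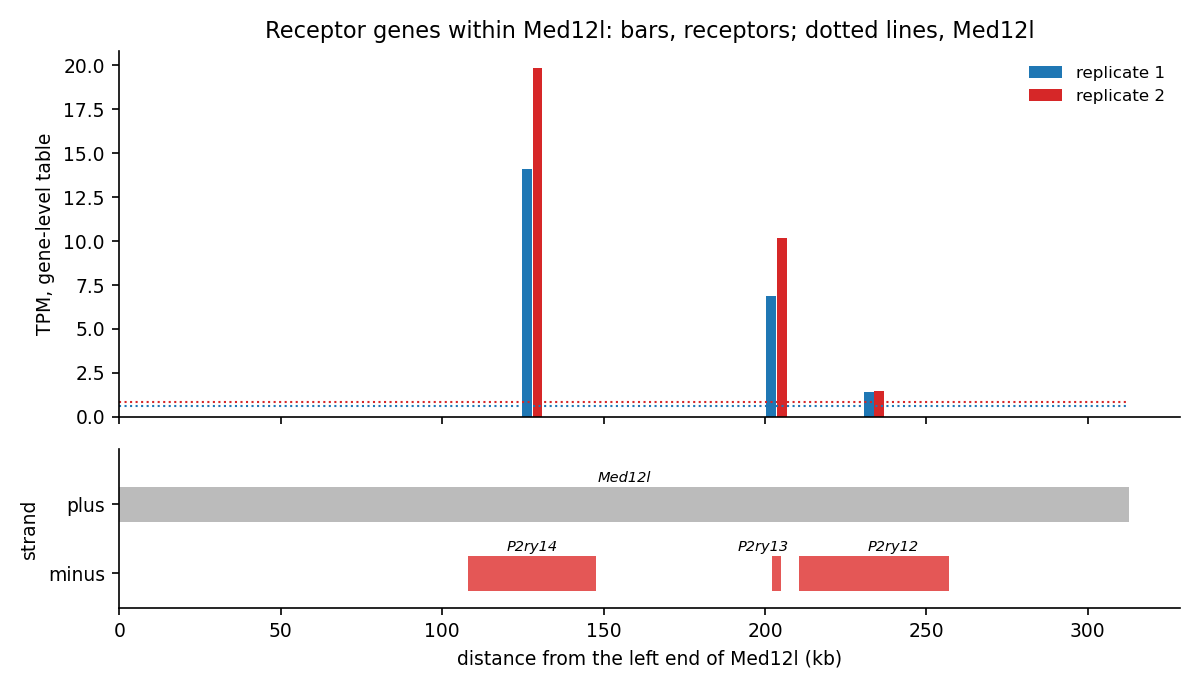
The 3 Gi-coupled nucleotide receptor genes within Med12l, with other genes there not drawn. Upper panel: gene-level TPM of the receptors in replicate 1 (blue) and replicate 2 (red), with dotted lines for Med12l. Lower panel: position of each gene by strand, in kb from the left end of Med12l, with the receptors in red. P2ry14 has the tallest bars, 14.1 and 19.8 TPM.

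Coding sequences of the receptors were compared to see whether reads could be shared within the set. The closest pair was Adora2a and Adora2b, identical at 69.8% of 957 aligned bases, with a longest shared run of 15 bases. P2ry13 and P2ry14 were identical at 58.7%, P2ry12 and P2ry13 at 57.1%, P2ry12 and P2ry14 at 56.4%, P2rx4 and P2rx7 at 60.6%, and P2ry2 and P2ry6 at 59.9%. No pair compared shared a run of more than 17 bases, the longest being between P2ry2 and P2ry6:
P2ry2 and P2ry6, longest shared run: gcttcctgcctttccac
Neighbours that are also relatives were therefore distinct at the length of a read word of 31 bases.

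Promoter windows, 250 bases before to 50 bases after an annotated start, were taken from RefSeq (GRCm38.p6) for the 8 receptors with an entry, in 13 windows. Adora2a and P2ry6 had none in the table used. Each of 4 motifs was searched on both strands. The interferon response element core GAAANNGAA was found in 0 of 13 windows and in 8.56% of all 32851 promoters, and the cAMP response element TGACGTCA in 0 of 13 and in 1.79% of all. A kappa B core, GGGNNTTCC, was found in 1 window, of P2ry14, and in 5.82% of all. The PU.1 core GAGGAAGT, named for a factor that macrophages depend on, was found in 2 windows, of Adora3 and P2rx7, and in 3.20% of all. The matches are shown with the motif in capitals and 10 bases on either side, 5′ to 3′ in the sense of the gene, at chr3:59130779-59130807, chr5:122650376-122650403 and chr3:105904381-105904408:
P2ry14, kappa B core: actaggaattGGGAGTTCCtcttttaagc
P2rx7, PU.1 core as its reverse complement: gcttcgagtcACTTCCTCccctggtggt
Adora3, PU.1 core as its reverse complement: gggttcctgtACTTCCTCttggactatc

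The other receptors of these families were all low. Of 9 genes, 4 reached 10 counts over the pair of libraries and 3 (Adora1, P2rx2 and P2ry4) had 0 counts. The highest were P2rx1, another ATP-gated channel, at 0.51 and 0.26 TPM, P2rx5 at 0.18 and 0.17 TPM and P2rx6 at 0.13 and 0.19 TPM. None of the 9 lay above the median of protein-coding genes. P2ry12, Adora2b and Adora3 are thus the receptors of the set nearest to these 9 in level.

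Genes that make and clear the ligands were measured in the same libraries. Among 12 ectonucleotidases and purine-handling enzymes, 4 lay above the median. Pnp, which splits inosine and guanosine, had 101 and 123 TPM, Entpd1, the ectonucleotidase known as CD39 that turns ATP and ADP into AMP, had 30.3 and 22.2 TPM, and Cd38, which degrades NAD, had 15.4 and 19.6 TPM. Nt5e, known as CD73, which makes adenosine from AMP, had 0.13 and 0.11 TPM on 13 and 11 counts. Entpd1 thus lay above Nt5e in both libraries. Among 7 nucleoside transporters, 3 lay above the median: Slc28a2 at 33.4 and 79.9 TPM, Slc29a3 at 21.1 and 23.8 TPM and Slc29a1 at 6.12 and 7.64 TPM. Slc28a2, which carries purine nucleosides with sodium, was 2.29-fold higher in replicate 2 by counts and was the only gene of the 7 pathway lists that passed both the exact binomial test and the minimum fold.

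Of 10 genes for nucleotide release, 2 lay above the median: Lrrc8d at 13.3 and 12.6 TPM and Lrrc8c at 5.92 and 9.95 TPM, both subunits of volume-regulated anion channels, followed by Lrrc8a, another subunit, at 3.53 and 3.34 TPM. Panx1, the channel through which ATP leaves cells, had 2.13 and 1.43 TPM. Of 10 G protein alpha subunits, 6 lay above the median, led by Gna13 at 44.5 and 58.8 TPM, Gnas, the Gs subunit, at 40.8 and 44.2 TPM and Gnai2, a Gi subunit, at 34.3 and 40.5 TPM. The Gq subunit Gnaq had 22.5 and 19.8 TPM. A subunit of each class that the receptors couple to was thus present above the median.

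Of 18 cAMP pathway genes, 6 lay above the median. The highest were Pde4b, a phosphodiesterase that breaks cAMP down, at 47.7 and 40.2 TPM, Adcy7, an adenylyl cyclase, at 31.4 and 33.9 TPM, and Prkar1a, a regulatory subunit of protein kinase A, at 32.3 and 24.0 TPM. Of the 9 genes in the inflammasome arm of P2rx7, 7 lay above the median. Il1b, the cytokine precursor that the inflammasome matures, had 276 and 168 TPM, Nlrp3, the sensor, 199 and 174 TPM, and Gsdmd, the pore-forming protein of pyroptosis, 56.7 and 98.7 TPM. All 3, named as the highest of the list, lay above P2rx7 itself in both libraries, as did Casp1 and Il18. Nek7, Kcnk6, Pycard (2.89 and 2.07 TPM) and Panx1 lay below P2rx7 in both.

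**Figure D5:**
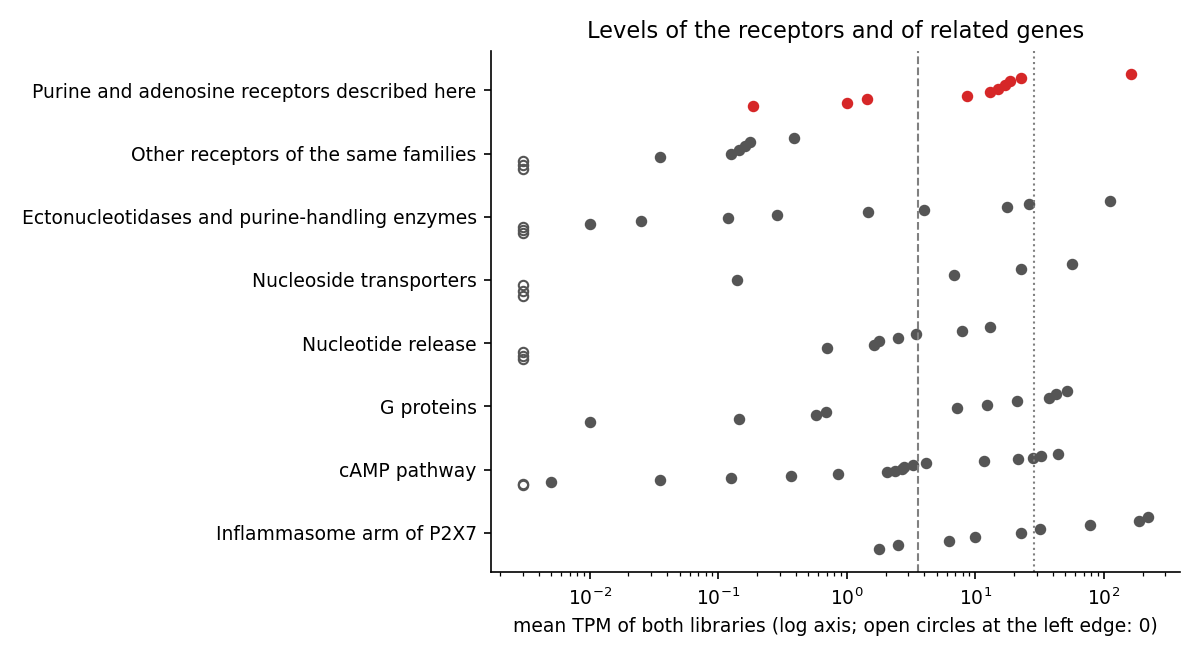
Mean TPM of both libraries on a log axis for the 10 receptors (red) and for the genes of 7 related lists (grey), 1 point per gene, with open circles for genes at 0. Dashed and dotted lines are the median (3.59) and 90 percentile (28.7) of protein-coding genes. The other receptors of the same families all lie left of the median, at 0.385 TPM or less.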

How the data were processed

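Per the file headers, the authors deposited for each library a gene-level table and an alignment-based transcript table made from alignments to the transcriptome, and an index-based transcript table, all on the mm10 assembly with the GENCODE M21 annotation and with replicates kept separate. The sources used here do not name the aligner, the quantifier or the strand setting. Expected counts, as the authors deposited them, are fractional estimates of reads per transcript or gene, and the deposited TPM values are scaled so that each table has an equal sum, small RNAs included. Some genes of the lists and neighbouring genes are not reported here. The deposited FPKM, percent-of-gene and other columns were not printed.

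Rows that name no gene were left out: 26248 with numeric identifiers (7.27e-05% and 8.78e-05% of counts) and 97 controls (0.144% and 0.0809%). Index-based values were summed per gene, and shares of a gene's counts and TPM in percent were computed from the deposited transcript tables. Gene-level counts were rounded and compared as 1 library against 1 with an exact binomial test at TMM-scaled shares (edgeR 4.0.16 in R 4.3.3, scipy 1.17.1). Calls needed both an adjusted p under 0.05 and a log2 ratio of 1 or more in size, with 0.5 added to counts in ratios. Intervals (95%) and limits from a count of 0 (3 counts) cover counting error only. The test was checked on simulated counts. Alternatives were library totals, DESeq2 1.42.0 size factors, count minimums, edgeR's exact test at set dispersions, a larger added count, no minimum fold, the index-based tables, TPM rescaled over protein-coding genes and leaving out a replicate. No quasi-likelihood fit was possible with 1 library against 1.

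The receptors, gene lists, motifs and rules for named genes and transcripts (at least 10% of a gene's TPM in either library, and the 3 highest genes of a list) were chosen with earlier results of these data known. Nt5e, Panx1, Gnaq, the lower genes of the inflammasome list, P2rx7-201, P2rx7-207, P2ry14-209 and the P2rx4 exons were chosen after their values were seen.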

Additional observations from a re-analysis of the deposited data

How the results depend on the processing

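No paired analysis was possible because the labels give a single group. Of the receptors tested, 0 passed the test between libraries with a minimum of 10 counts in both libraries (9 tested) or of 100 (7 tested), and 0 of 10 passed under library totals, DESeq2 size factors, 5 added to each count, edgeR's exact test at dispersions of 0.01 and 0.04 and the index-based tables, and 7 passed with no minimum fold. Over all genes, 1090 passed in the main comparison, 2304 of 32178 in the index-based tables, 678 of 13831 with 10 or more counts in both libraries, 170 of 8641 with 100 or more, 686 at a dispersion of 0.01, 166 at 0.04 and 6006 with no minimum fold. Library totals moved the median log2 ratio, taken over genes above a minimum summed count, to -0.078. Of 40 alternative log2 ratios of single receptors, 38 kept their direction. Most of the 40 came from the same counts, and library totals or size factors shift all ratios alike, so few of these could turn. The index-based tables alone hold other counts. There Adora3 turned to -0.42 and P2ry12 to 0.093, and the cause was not tested. Receptors above the median of protein-coding genes numbered 7 in the index-based tables and with either replicate left out, and 9 with no minimum count. Those above the 90 percentile numbered 1 in the index-based tables and with either replicate left out, and 4 with no minimum count on the reference genes, which adds genes at or near 0 to the reference. The share of TPM in transcripts that do not code for protein moved by more than 1 SD in the index-based tables for P2rx7 (28.4%), P2ry2 (40.2%), P2ry6 (33.4%) and P2ry14 (15.3%). Of 40 alternative mean TPM values, 19 moved by more than 1 SD, but only the 10 index-based ones could have gone either way. For a pair of libraries, leaving out a replicate always shifts the mean by less than 1 SD. Protein-coding genes held 21% and 21.9% of gene-level TPM in replicates 1 and 2. Rescaling over them therefore had to move all 10 means (P2rx4 to 757 TPM). Of the 10 index-based means, 9 moved, all but that of Adora2a, so mean TPM depended on the quantification. Depth limits Adora3, Adora2b and P2ry12, which had under 100 counts in each library.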
